A study of Rattus norvegicus with 12 samples.

Results

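The genes described are the 10 genes of MHC class II antigen presentation that were chosen by name: the alpha and beta chains of the rat class II molecules RT1-D (RT1-Da and RT1-Db1) and RT1-B (RT1-Ba and RT1-Bb), the chains of the peptide loading factor DM (RT1-DMa and RT1-DMb) and of its modulator DO (RT1-DOa and RT1-DOb), the invariant chain Cd74, and the transactivator Ciita. All 10 matched a gene name among 23526 named entries of the table, and all 10 were among the 13756 genes that passed the filter on low counts. RNA was sequenced from the free walls of the right ventricle (RV) and left ventricle (LV) of 6 male Sprague-Dawley rats, aged 3 to 4 months. The RV_H and LV_H groups came from 3 rats (rats 1, 2 and 4) kept at 10% O2 in a hypobaric chamber for 2 weeks, and the RV_N and LV_N groups from 3 other rats (rats 1, 2 and 3) that breathed room air. Each heart thus gave a library of either ventricle. Sprague-Dawley is an outbred stock, and each library is whole tissue of 1 ventricle of 1 rat.

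Class II molecules are pairs of an alpha and a beta chain that show peptides from endocytosed proteins to CD4+ T cells. The invariant chain Cd74 holds newly made pairs together and blocks their groove until proteases of the endosome degrade it, after which DM exchanges the remaining fragment for a peptide and DO restrains DM. Dendritic cells, macrophages and B cells carry most class II molecules of a tissue, and the class II transactivator Ciita, which is recruited to the promoters by RFX, NF-Y and CREB proteins, sets whether a cell transcribes these genes.

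The libraries held between 21468274 and 39991848 estimated counts. Without TMM, the scaling that sets most genes to no change, the median gene lay 0.16 higher on the log2 scale in RV than in LV over both exposures, 0.12 higher in RV_H than in RV_N and 0.17 higher in LV_H than in LV_N, and the calls over all genes were 102 higher and 31 lower in RV, in place of 107 and 95 with TMM. TPM values, given below for each library, carry this shift, and fold changes, which are on the TMM scale, do not. The tissue was heart muscle by its markers: the 16 cardiac myocyte markers summed to between 48777 and 66197 TPM in every library. Leukocyte genes were low beside these, with 92.4 to 269 TPM for 19 pan-leukocyte genes.

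Cd74 was by far the most abundant of the 10 genes. Its mean over the 12 libraries was 431 TPM (range 354 to 551), which made up 75.6% of the summed mean TPM of the 10. RT1-Da followed at 41.2 TPM, RT1-Db1 at 28.6, RT1-DMb at 25.1, RT1-Bb at 19.5, RT1-Ba at 16.2 and RT1-DMa at 6.43 TPM. RT1-DOa (0.853 TPM), RT1-DOb (0.755 TPM) and Ciita (0.434 TPM) were near the floor of detection, and these 3 genes are read with caution. Ciita had 4.93 to 24.4 estimated counts a library, and Cd74 had 8409 to 18888. Within a library these counts are proportional to TPM, so they are not numbers of reads and do not give the precision of a gene.

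**Figure D1:**
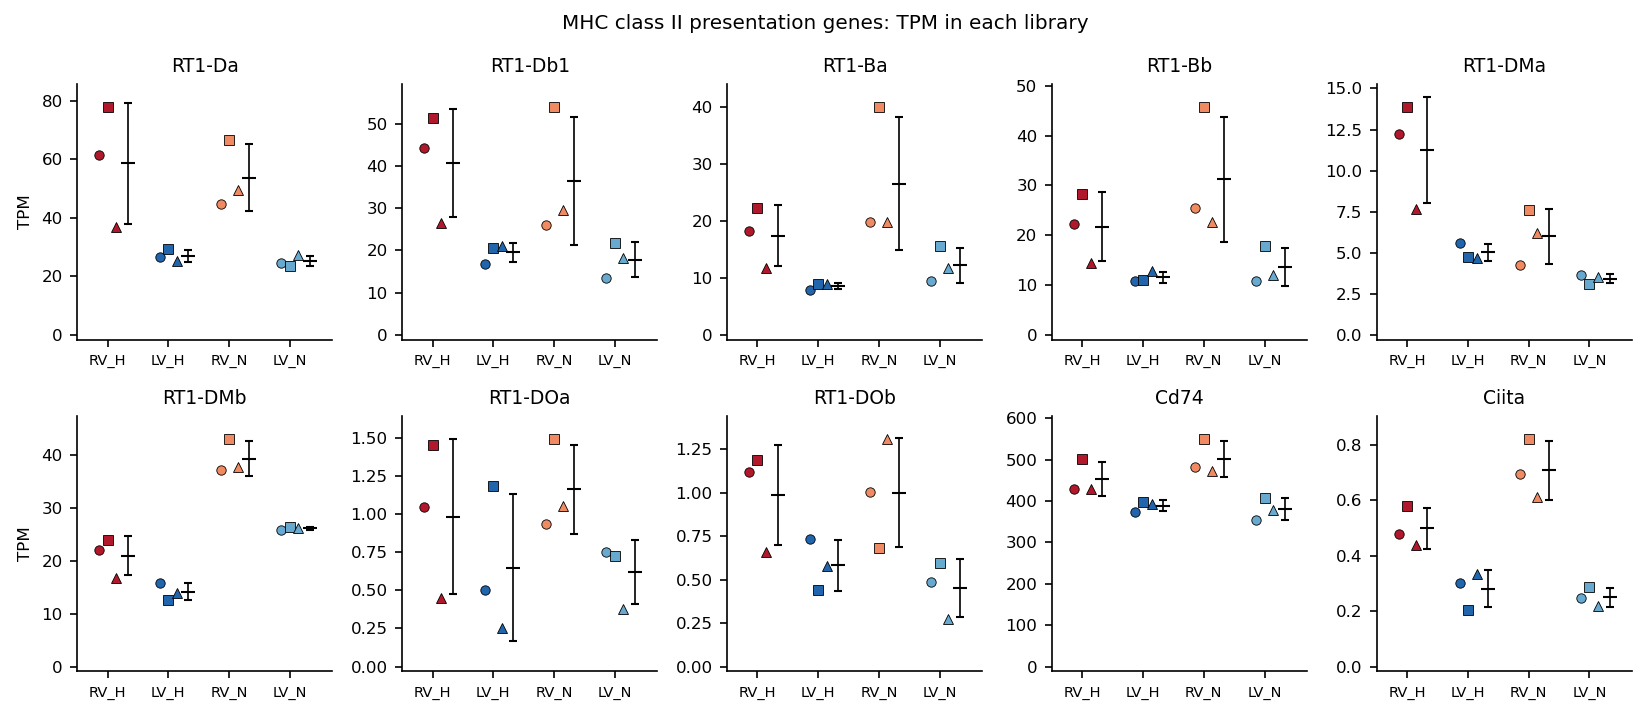
TPM of each of the 10 genes (vertical axis, linear from 0) in each library of the 4 groups; circles are rat 1, squares rat 2 and triangles rat 4 (hypoxia) or rat 3 (normoxia), and the bar beside the points is the mean ± SD of 3 rats. RT1-Da lay between 36.8 and 77.8 TPM in the 6 RV libraries and between 23.7 and 29.3 TPM in the 6 LV libraries, whereas RT1-DMb lay lower in both hypoxic groups (12.7 to 24 TPM) than in both normoxic groups (25.9 to 43.1 TPM).

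The first question was whether the ventricles differ. Over both exposures, 4 of the 10 genes were higher in RV than in LV (RT1-DMb, RT1-Da, RT1-DMa and Ciita), against 0.778% of all tested genes called higher, and none was lower. The 10 genes were chosen with earlier results of these data known, so the shares set beside theirs here and below are descriptions. All 10 log2 fold changes were above 0, with a median of 0.84 where the median over all tested genes was -0.00, and 49.2% of all tested genes had a value above 0. In tissue RNA, fewer cells of a type and less RNA per cell cannot be told apart. Calls are from edgeR's quasi-likelihood test with Benjamini-Hochberg adjustment over the 13756 genes.

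With the rat as a block, a fit that compares the ventricles of 1 heart, 6 of the 10 genes were called higher in RV, against 1.68% of all tested genes. RT1-Ba, RT1-Bb and RT1-Db1 entered (adjusted p = 0.0227, 0.0227 and 0.0341 by edgeR) and Ciita left (adjusted p = 0.0658). The calls depended on single libraries: none of the 10 genes was called without LV_H rat 4 (a fit in which 11 genes of the whole table were called higher), 1 without RV_H rat 1, RV_H rat 2, RV_N rat 2, RV_N rat 3, LV_N rat 2 or LV_N rat 3, 2 without LV_H rat 2, and 6 without RV_H rat 4. RT1-DMb was the gene that stayed called in each of these but the first, where its adjusted p was 0.0567. The log2 fold changes of the 10 genes stayed above 0 in all of the fits tried, the lowest being 0.09 for Cd74.

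Each of the 4 classical chains was higher in RV than in LV in all 6 hearts. RT1-Da, the alpha chain of RT1-D, had 61.6, 77.8 and 36.8 TPM in RV_H against 26.5, 29.3 and 25.3 TPM in LV_H, and 44.9, 66.8 and 49.6 TPM in RV_N against 24.7, 23.7 and 27.2 TPM in LV_N. No LV library reached the lowest RV library. Its RV over LV fold was 1.89 (95% interval 1.5 to 2.39, log2 0.92 ± 0.15 SE, edgeR adjusted p = 0.0219).

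RT1-Db1, the beta chain that pairs with it, had 44.3, 51.2 and 26.6 TPM in RV_H against 16.9, 20.7 and 21 TPM in LV_H, and 25.9, 53.9 and 29.5 TPM in RV_N against 13.5, 21.7 and 18.2 TPM in LV_N. The groups did not overlap within either exposure, and rat 2 was the highest of the RV libraries in both. The fold of 1.81 (95% interval 1.32 to 2.49) missed the threshold at an adjusted p of 0.0706 in edgeR's test without the block. RT1-Db1 has a near copy, RT1-Db2, between which reads may be split, and the sum of the 2 gave a log2 difference of 0.85 ± 0.19 (adjusted p = 0.0571).

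RT1-Ba, the alpha chain of RT1-B, had 18.1, 22.3 and 11.7 TPM in RV_H against 7.90, 8.91 and 8.90 TPM in LV_H, and 19.9, 39.9 and 19.8 TPM in RV_N against 9.39, 15.5 and 11.7 TPM in LV_N. Its partner RT1-Bb had 22.3, 28.3 and 14.5 TPM in RV_H against 10.9, 11 and 12.9 TPM in LV_H, and 25.4, 45.7 and 22.7 TPM in RV_N against 10.9, 18.0 and 12.0 TPM in LV_N. For both chains every RV library was above every LV library of its exposure. Without the block neither passed: RT1-Ba differed by 0.89 ± 0.21 (adjusted p = 0.0661) and RT1-Bb by 0.87 ± 0.20 (adjusted p = 0.0632) on the log2 scale in edgeR's test.

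DM, which loads the peptide, was higher in RV through both chains, but by different amounts. RT1-DMa had 12.2, 13.9 and 7.66 TPM in RV_H against 5.62, 4.75 and 4.69 TPM in LV_H, and 4.26, 7.60 and 6.18 TPM in RV_N against 3.65, 3.11 and 3.53 TPM in LV_N, a fold of 1.75 (95% interval 1.41 to 2.18, edgeR adjusted p = 0.0281). RT1-DMb had 22.0, 24 and 16.8 TPM in RV_H against 15.9, 12.7 and 13.9 TPM in LV_H, and 37.1, 43.1 and 37.7 TPM in RV_N against 25.9, 26.5 and 26.2 TPM in LV_N, a fold of 1.33 (95% interval 1.21 to 1.46, edgeR adjusted p = 0.0152). The smaller fold of RT1-DMb had the smaller error: its 3 LV_N libraries had a coefficient of variation of 1.15%.

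DO, the modulator of DM, was too low for a firm statement. RT1-DOa had 1.05, 1.45 and 0.448 TPM in RV_H against 0.503, 1.19 and 0.253 TPM in LV_H, and 0.937, 1.49 and 1.06 TPM in RV_N against 0.753, 0.726 and 0.376 TPM in LV_N. RT1-DOb had 1.12, 1.19 and 0.659 TPM in RV_H against 0.732, 0.438 and 0.576 TPM in LV_H, and 1.00, 0.683 and 1.31 TPM in RV_N against 0.486, 0.597 and 0.273 TPM in LV_N. The hypoxic groups overlapped in TPM for both chains, and neither fold change passed (RT1-DOa 0.53 ± 0.41, adjusted p = 0.539, and RT1-DOb 0.77 ± 0.24, adjusted p = 0.129 in edgeR).

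The invariant chain Cd74 showed little difference between the ventricles. It had 428, 501 and 430 TPM in RV_H against 373, 399 and 394 TPM in LV_H, and 483, 551 and 472 TPM in RV_N against 354, 407 and 379 TPM in LV_N. The TPM values did not overlap, but on the TMM scale the fold was 1.1 with a 95% interval of 0.96 to 1.26 (edgeR adjusted p = 0.451). The upper end of that interval lay below the estimated fold of RT1-Da. With limma on log2(TPM + 1), which keeps the shift of all genes, Cd74 passed (adjusted p = 0.0440).

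A ratio within a library is free of the scaling. Cd74 TPM over the summed TPM of the 4 classical chains was 2.93, 2.79 and 4.8 in RV_H against 6.0, 5.70 and 5.79 in LV_H, and 4.16, 2.67 and 3.88 in RV_N against 6.04, 5.16 and 5.49 in LV_N. In every heart there was thus less Cd74 RNA per class II chain RNA in RV than in LV.

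Ciita, the transactivator, had 0.477, 0.581 and 0.438 TPM in RV_H against 0.302, 0.205 and 0.333 TPM in LV_H, and 0.694, 0.821 and 0.610 TPM in RV_N against 0.246, 0.285 and 0.218 TPM in LV_N. The groups did not overlap in either exposure, and the RV_N libraries were the highest. The fold was 2.01 (95% interval 1.45 to 2.78, edgeR adjusted p = 0.0483), a call that was lost when any library but LV_H rat 1 was left out.

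Within hearts, on the TMM scale, 8 of the 10 genes were higher in RV than in LV in all 6 hearts, against 6.79% of all tested genes. The exceptions were Cd74 and RT1-DOa, each lower in RV in hypoxic rat 2 only, at ratios of 0.89 and 0.87. In TPM all 10 genes were higher in RV in all 6 hearts. The median RV over LV ratio of the 10 genes was 2.13 in hypoxic rat 1, 1.79 in rat 2 and 1.31 in rat 4, and 1.60, 2.18 and 1.61 in normoxic rats 1, 2 and 3, where the median over all tested genes lay between 0.992 and 1.01. RT1-DMa in normoxic rat 1 was all but equal in the ventricles (ratio 1.00).

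**Figure D2:**
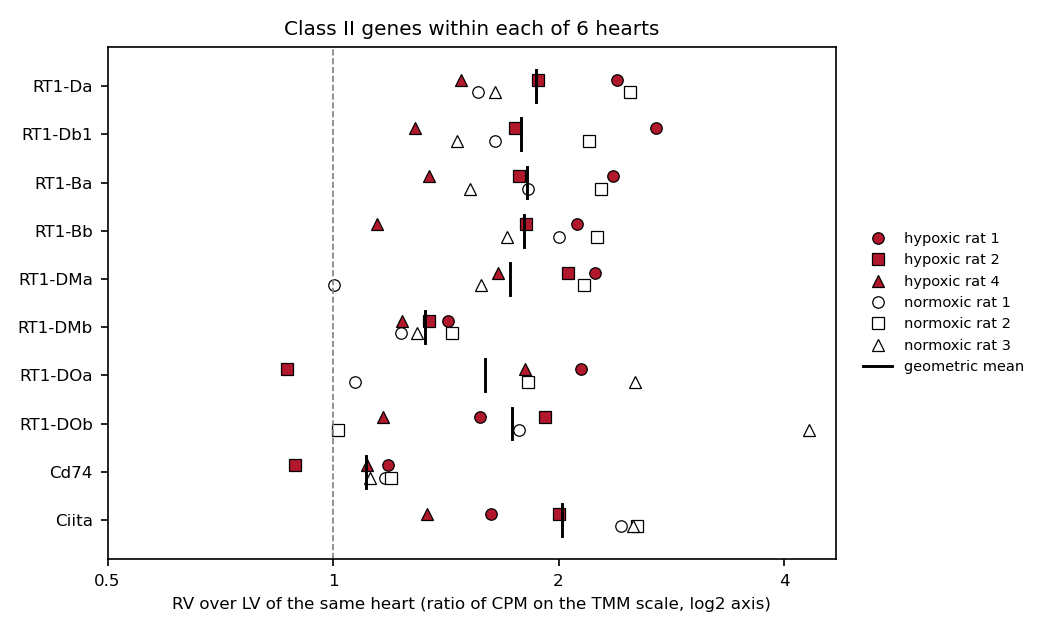
Ratio of RV to LV in the same heart, in CPM on the TMM scale (horizontal log2 axis), for each gene; filled marks are hypoxic rats, open marks normoxic rats, and the vertical bar is the geometric mean of 6 hearts. The ratios of RT1-DMb span 1.23 to 1.44 and those of RT1-Da 1.48 to 2.49, all above 1, whereas Cd74 lies between 0.89 and 1.20.

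Taken within hypoxia, 0 of the 10 genes passed between RV_H and LV_H in edgeR's quasi-likelihood test, against 0.174% of all tested genes called higher. Of the 10, 6 had an unadjusted p under 0.05, against 2300 of the 13756 tested genes in either direction. The smallest adjusted p was 0.0611, for RT1-DMa (log2 1.00 ± 0.20). With the rat as a block there were again 0 (0.741% of all tested genes), the smallest being 0.0501 for RT1-Da. DESeq2, edgeR's exact test and the fit without RV_H rat 4 each called the same 3 genes higher, RT1-DMa, RT1-DMb and RT1-Da. These fits called more of the whole table higher, 235, 245 and 99 genes in that order, against 24 in the quasi-likelihood test. Libraries did not overlap for 8 of the 10, with RV_H above, against 9.41% of all tested genes, the exceptions being Cd74 and RT1-DOa.

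Within normoxia, 0 of the 10 passed between RV_N and LV_N, against 0.0145% of all tested genes called higher. Of the 10, 8 had an unadjusted p under 0.05, against 1278 of the 13756 tested genes in either direction. The smallest adjusted p values in edgeR's test were 0.217 for RT1-DMb (log2 0.40 ± 0.08) and 0.222 for Ciita (log2 1.35 ± 0.30), with RT1-Da at 0.247. DESeq2 called RT1-DMb and RT1-Da, and edgeR's exact test called RT1-Da. Of the whole table these called 34 and 40 genes higher, against 2 in the quasi-likelihood test. The RV_N libraries were above the LV_N libraries for all 10 genes on the TMM scale, against 9.93% of all tested genes.

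Beside these values, leukocyte genes were higher in RV as well, where 0.778% of all tested genes were called higher. Of 19 pan-leukocyte genes tested, 12 were called higher in RV over both exposures and none lower, with a median log2 fold change of 0.65, led by Laptm5, a lysosomal protein of blood cells (0.57 ± 0.06, edgeR adjusted p = 0.00548). Of 19 macrophage and monocyte markers tested, 8 were called higher (median 0.82), among them Adgre1, the F4/80 antigen (1.03 ± 0.15, adjusted p = 0.0122). Of 12 dendritic cell markers tested, 3 were called higher (median 0.18): the lectin Clec10a (0.80 ± 0.12), the cytokine receptor Flt3 (1.66 ± 0.32) and the transcription factor Irf8 (0.67 ± 0.13). Of 12 T and NK cell markers tested, 1 was called higher, Cd4.

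Summed over the whole list, 22 macrophage and monocyte markers had 335 to 583 TPM in RV_H against 157 to 327 in LV_H, and 204 to 287 TPM in RV_N against 112 to 161 in LV_N. Marco was at 0 in every library. The 11 B cell markers summed to only 2.74 to 5.31 TPM in RV_H against 2.36 to 3.81 in LV_H, and 2.15 to 3.44 in RV_N against 1.34 to 2.14 in LV_N, and 0 of the 4 that could be tested were called by edgeR. Other cell types showed few calls. Of the 12 fibroblast and 9 epicardial and mesothelial markers tested none was called, with medians of 0.49 and 1.35, and of 8 erythroid genes none was called, with a median of -0.75. Lower in RV were 2 of 11 endothelial markers, the VEGF receptors Flt1 and Kdr, and 1 of 16 cardiac myocyte markers, the natriuretic peptide Nppa (-2.65 ± 0.29).

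Within each heart, the mean log2 ratio of RV to LV was 0.39 to 1.25 for the 4 classical chains, 0.22 to 1.13 for the macrophage and monocyte markers and 0.40 to 0.85 for the pan-leukocyte genes. It was 0.19 to 0.71 for the dendritic cell markers, 0.06 to 0.96 for the T and NK cell markers and -0.50 to 1.79 for the 4 B cell markers. The B cell markers had -0.50 in hypoxic rat 1 and 1.38 in hypoxic rat 4, where the chains had 1.25 and 0.39. The same mean was -0.70 to -0.26 for the cardiac myocyte markers and -0.21 to 0.00 for the endothelial markers. The part that the content of these cells has in the class II values was not tested.

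Other genes of the pathway held fewer calls in RV against LV over both exposures, where 0.778% of all tested genes were called higher. Of 27 genes of class I presentation, 0 were called in RV against LV by edgeR, and their median log2 fold change was 0.05. Of 14 class II activators other than Ciita (the RFX, NF-Y and CREB proteins, their cofactors and interferon factors such as Irf1), 0 were called and the median was -0.01. Among 14 tested genes of interferon-gamma signalling, Irf8, which is also a dendritic cell marker, was the 1 called, and among 10 tested costimulation genes none was, the smallest adjusted p being 0.111 for Cd274, the ligand PD-L1 (-0.31 ± 0.09).

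Of 16 genes of endolysosomal processing, 2 were called higher in RV: Ifi30, the thiol reductase GILT that unfolds antigens (0.44 ± 0.08, edgeR adjusted p = 0.0336), and the cathepsin Ctsz (0.74 ± 0.14, adjusted p = 0.0366). Ctss, the protease that trims the invariant chain in antigen-presenting cells, had 0.88 ± 0.19 with an adjusted p of 0.0524. Of the 16 log2 fold changes 13 were above 0, with a median of 0.12. On the T cell side, 1 of 11 tested genes was called, Cd4, the coreceptor for class II (1.00 ± 0.16, adjusted p = 0.0204), which in the rat is also carried by macrophages. All 11 log2 fold changes were above 0, with a median of 0.36. Taken by exposure, 11 of the 11 were above 0 in RV_N against LV_N (median 0.81). In RV_H against LV_H only 5 of the 11 were (median -0.01).

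Class II promoters are known for an X box, bound by RFX, and a Y box, bound by NF-Y, at a set distance. Promoter stretches are shown as a description, and their part in the difference between the ventricles was not tested. RefSeq promoter windows of the GRCr8 assembly (250 bases before to 50 after the annotated start) were found for 8 of the 10 genes. AGCAAC, a core of the X1 box, was in 5 of the 8 windows on either strand, against 14.7% of 33469 windows, and CCAAT, the Y box, was in 8 of 8, against 37.5%. AGCAAC followed on the same strand by ATTGG, which is CCAAT read on the other strand, with 20 to 45 bases between their first bases, was in 4 of 8, against 0.385% of windows. In RT1-Ba, RT1-Bb and RT1-DMa a looser pattern, GNNACNG, preceded ATTGG at such a distance; that pattern was chosen after these sequences were seen, and 4.65% of windows hold it before ATTGG. The stretches are given from 5′ to 3′ along the gene, with these matches in capitals:
RT1-Da (chr20:4515326-4515376, plus strand): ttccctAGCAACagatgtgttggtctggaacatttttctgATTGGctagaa
RT1-Db1 (chr20:4560232-4560281, minus strand): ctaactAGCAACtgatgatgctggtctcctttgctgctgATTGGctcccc
RT1-DOa (chr20:4758520-4758570, minus strand): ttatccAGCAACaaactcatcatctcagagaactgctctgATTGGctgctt
RT1-DOb (chr20:4627596-4627643, minus strand): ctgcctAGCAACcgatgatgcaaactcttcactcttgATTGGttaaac
RT1-Ba (chr20:4576975-4577024, plus strand): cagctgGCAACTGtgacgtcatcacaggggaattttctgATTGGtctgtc
RT1-Bb (chr20:4604169-4604217, minus strand): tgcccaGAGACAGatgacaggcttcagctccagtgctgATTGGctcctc
RT1-DMa (chr20:4712389-4712438, minus strand): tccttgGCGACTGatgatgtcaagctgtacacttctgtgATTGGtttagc
Cd74 (chr18:56527115-56527168, plus strand): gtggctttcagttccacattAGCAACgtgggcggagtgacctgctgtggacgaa

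In the 7 RT1 genes the first bases of the X and Y matches were 31 to 34 bases apart, and the whole stretch lay within 147 bases of the start. Cd74 had the X1 core at position -71 from the start and no ATTGG after it at that distance. Its only match to the Y box was on the other strand, at position -189. A match to these letters is not a measured binding site, and RT1-DMb and Ciita are named only.

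**Figure D3:**
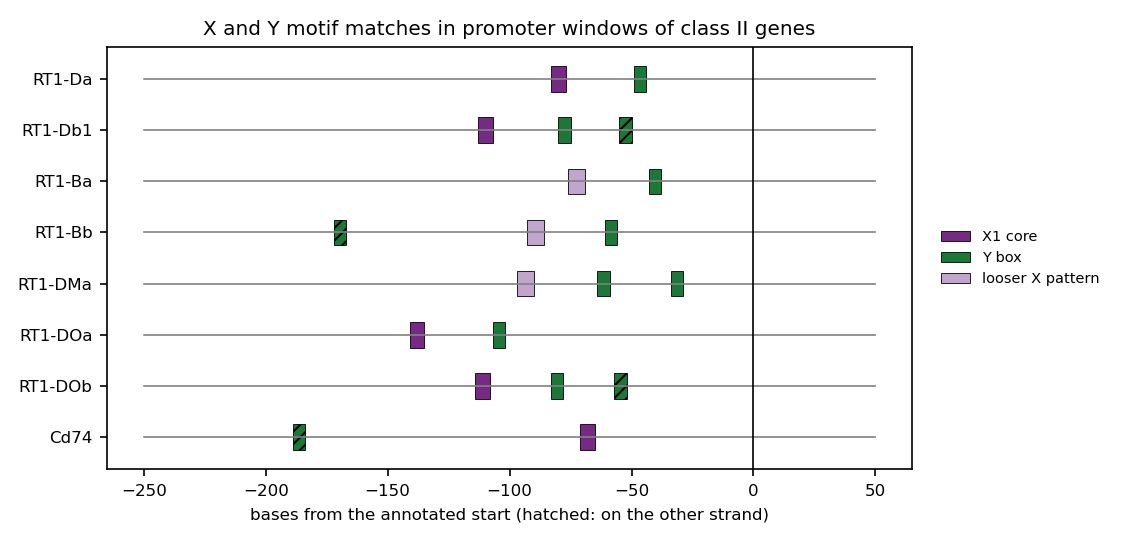
Positions of matches to the X1 core, to the looser X pattern and to the Y box (coloured blocks) along the promoter windows of 8 genes, in bases from the annotated start (horizontal axis). In the 7 RT1 genes an X match stands 31 to 34 bases before a Y match, and in Cd74 the Y match is at -189, before the X1 core at -71.

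The second question was what differed between the hypoxic and the normoxic rats. In RV_H against RV_N, 1 of the 10 genes was called higher, RT1-DMa, against 7.43% of all tested genes, and 1 lower, RT1-DMb, against 7.6%. In LV_H against LV_N, 0 were called higher, against 0.698% of all tested genes (none with an unadjusted p under 0.05 and none by DESeq2), and 1 lower, again RT1-DMb, against 0.669%. On library totals without TMM the calls over all genes were 864 higher and 429 lower in RV, in place of 1022 and 1045, and 174 and 28 in LV, in place of 96 and 92, and the calls of the 10 genes were the same. The median log2 fold change of the 10 genes was -0.32 in RV and -0.04 in LV. What follows concerns single genes, since the shares in RV are near the background.

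RT1-DMb, the DM beta chain, fell in both ventricles: with the values given above, every hypoxic library was below every normoxic library of its ventricle. The log2 fold change was -1.04 ± 0.09 in RV (edgeR adjusted p = 0.000305) and -1.05 ± 0.09 in LV (adjusted p = 0.0005), which is a fold of 0.49 (95% interval 0.43 to 0.56) in RV and 0.48 (0.42 to 0.55) in LV. The call held in each alternative fit of either comparison.

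RT1-DMa, the alpha chain of the same dimer and the neighbouring protein-coding gene of RT1-DMb in the RefSeq order, rose in RV. The fold was 1.70 (95% interval 1.26 to 2.29, edgeR adjusted p = 0.0259) in RV and 1.31 (0.96 to 1.80, adjusted p = 0.352) in LV. The RV call was lost without RV_H rat 1 (adjusted p = 0.0888), RV_H rat 2 (0.106), RV_N rat 1 (0.0912) or RV_N rat 3 (0.0756), and in edgeR's fit of the 6 RV libraries alone (0.0632). Passing in RV and not in LV does not show that the ventricles differ: the difference of the effects was 0.38 ± 0.28 on the log2 scale (edgeR adjusted p = 0.792).

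The balance of the DM chains therefore differed between exposures. RT1-DMa TPM over RT1-DMb TPM was 0.556, 0.576 and 0.455 in RV_H against 0.115, 0.176 and 0.164 in RV_N, and 0.354, 0.376 and 0.338 in LV_H against 0.141, 0.117 and 0.135 in LV_N. Averaged over the ventricles of a heart, the ratio was 0.443, 0.465 and 0.392 in the hypoxic rats against 0.127, 0.144 and 0.149 in the normoxic rats, a log2 difference of 1.63 (two-sided exact permutation test over 3 against 3 rats, p = 0.1, the smallest this design allows). Any ratio without overlap between the exposures gives this p. The chains had already been called in opposite directions in RV, so the test adds no evidence to those calls. Only this ratio and RT1-Da over RT1-Ba were tested, among more ratios that were calculated. Within groups the chains varied together: with group means subtracted, their log2 CPM had r = 0.84 over 12 libraries, and without that r = -0.19, given as descriptions of libraries that share rats in pairs.

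**Figure D4:**
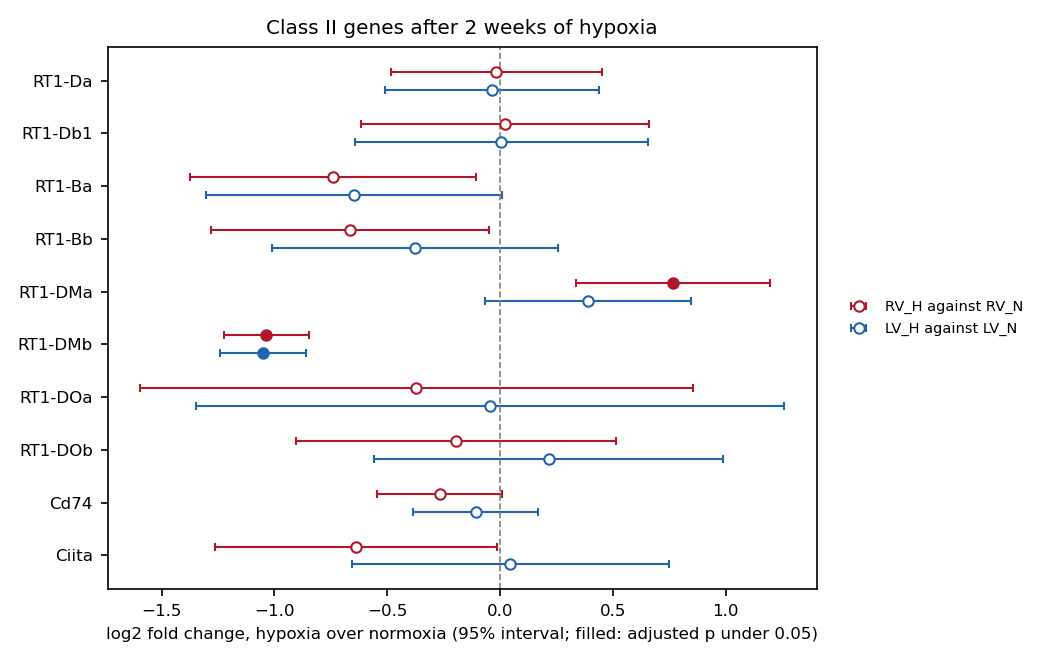
Log2 fold change of hypoxia over normoxia with its 95% interval (horizontal axis) for each gene, in RV (red) and LV (blue); filled marks passed an adjusted p of 0.05 in edgeR. RT1-DMb is filled at -1.04 and -1.05, RT1-DMa is filled at 0.77 in RV, and the intervals of RT1-Da and RT1-Db1 centre near 0.

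The other chains did not pass in either ventricle. RT1-Da and RT1-Db1 were centred on no change in RV, at -0.02 ± 0.21 and 0.02 ± 0.29 on the log2 scale, and the interval of RT1-Da (fold 0.71 to 1.37) leaves room for a moderate change in either direction. RT1-Ba and RT1-Bb had -0.74 ± 0.29 and -0.66 ± 0.28 in RV (edgeR adjusted p = 0.106 and 0.133), and -0.65 ± 0.30 and -0.38 ± 0.29 in LV (adjusted p = 0.292 and 0.534). Ciita had -0.64 ± 0.28 in RV (adjusted p = 0.153) and 0.05 ± 0.32 in LV (adjusted p = 0.969), and Cd74 had -0.27 ± 0.13 in RV (adjusted p = 0.175) and -0.11 ± 0.13 in LV (adjusted p = 0.698).

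On the TMM scale, hypoxic libraries were below normoxic libraries without overlap for 4 of the 10 genes in RV (RT1-DMb, RT1-Ba, Cd74 and Ciita), against 20% of all tested genes, and for 2 in LV (RT1-DMb and RT1-Ba), against 11.2%. They were above without overlap for RT1-DMa in both ventricles, against 18.7% of all tested genes in RV and 10.2% in LV. RT1-Ba, Cd74 and Ciita did not pass the test.

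The RT1-D and RT1-B alpha chains kept a different proportion in the exposures. RT1-Da TPM over RT1-Ba TPM was 3.40, 3.48 and 3.13 in RV_H against 2.26, 1.67 and 2.50 in RV_N, and 3.36, 3.29 and 2.84 in LV_H against 2.63, 1.53 and 2.32 in LV_N. By rat it was 3.38, 3.39 and 2.98 in hypoxia against 2.44, 1.60 and 2.41 in normoxia (two-sided exact permutation test over 3 against 3 rats, p = 0.1, the smallest possible). That p follows from the lack of overlap alone and is given as a description. RT1-Ba over RT1-Bb, the chains of 1 molecule, stayed between 0.692 and 0.976 in all 12 libraries.

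The near copy RT1-Db2 is not among the 10 genes and followed exposure and rat. It had 6.53, 7.79 and 4.21 TPM in RV_H against 1.87, 0.128 and 2.28 TPM in RV_N, and 2.53, 2.99 and 3.35 TPM in LV_H against 1.42, 0 and 1.22 TPM in LV_N. Normoxic rat 2 was lowest in both ventricles, and no hypoxic rat was that low. As a share of the summed TPM of RT1-Db1 and RT1-Db2, it was 12.6% to 13.7% in the 6 hypoxic libraries and 0% to 9.50% in the 6 normoxic libraries. The rise did not pass in edgeR's test (RV 1.90 ± 0.74, adjusted p = 0.105, and LV 1.61 ± 0.80, adjusted p = 0.325), and the summed pair had 0.17 ± 0.27 in RV and 0.14 ± 0.27 in LV. Each exposure is represented by 3 rats of an outbred stock, so an effect of exposure and differences between the rats cannot be told apart. This holds for the ratios between these genes and for RT1-DMb and RT1-DMa themselves.

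**Figure D5:**
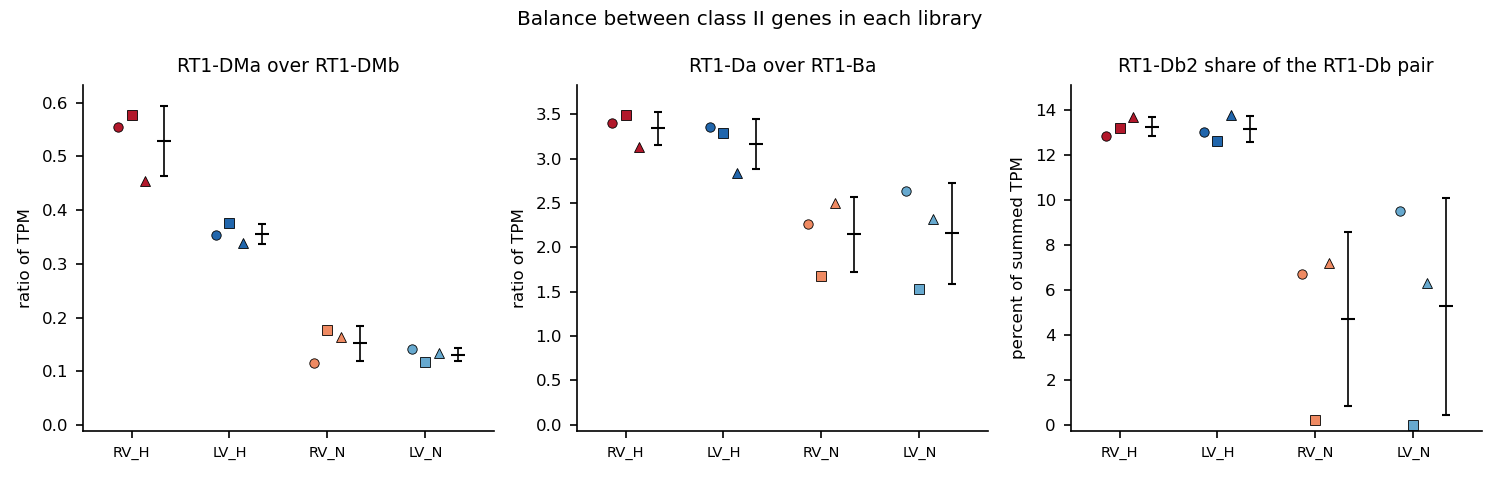
RT1-DMa over RT1-DMb, RT1-Da over RT1-Ba (ratios of TPM) and the share of RT1-Db2 in the RT1-Db pair (percent of summed TPM) in each library of the 4 groups; circles are rat 1, squares rat 2, triangles rat 4 (hypoxia) or rat 3 (normoxia), and bars are the mean ± SD of 3 rats. Hypoxic libraries lie above normoxic libraries in all 3 panels, at 0.338 to 0.576 against 0.115 to 0.176 for the DM chains.

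Beside the hypoxia values, 8 of 19 macrophage and monocyte markers rose in RV_H against RV_N and none fell (median 0.72), and 5 of 19 pan-leukocyte genes rose and none fell (median 0.34). Of 12 dendritic cell markers, Clec10a and Fscn1 rose. In LV_H against LV_N, 0 of the 19 macrophage and monocyte markers were called by edgeR (median 0.62) and 2 of the 19 pan-leukocyte genes rose, Cd52 and Itgb2. On the T cell side, 3 of 11 genes fell in RV, Cd2, Cd28 and Zap70 (-1.40 ± 0.26, -1.56 ± 0.35 and -1.29 ± 0.38), named because they were called. Of 14 class II activators, 1 rose in RV, the NF-Y subunit Nfya (0.47 ± 0.12), and 1 fell. Of the endolysosomal genes, 3 of 16 rose in RV, the cathepsins Ctsb and Ctsl and the tetraspanin Cd63, named for the same reason. Markers of other cell types were called in RV as well. Of 12 fibroblast markers 5 rose and 1 fell (median 0.92), and of 8 erythroid genes 2 rose and none fell (median 1.17). Of 16 cardiac myocyte markers 1 rose and 3 fell (median -0.25), and of 11 endothelial markers 1 rose and 2 fell (median 0.20). Of all tested genes, 7.43% were called higher and 7.6% lower in RV_H against RV_N, and 0.698% higher in LV_H against LV_N. Where 1 gene of a list was called in a direction in RV, its share is near that of all tested genes. The part of these cell types in the class II values was not tested.

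The third question was whether hypoxia acted differently in the ventricles. For the difference between the effects, 0 of the 10 genes passed in edgeR's quasi-likelihood test, against 0% of all tested genes, with 0 at an unadjusted p under 0.05 and 0 by DESeq2. The estimates ran between -0.68 ± 0.43 for Ciita and 0.38 ± 0.28 for RT1-DMa. For RT1-DMb it was 0.02 ± 0.12, with a 95% interval of -0.25 to 0.28, so the fall of RT1-DMb differed between the ventricles by no more than that.

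The genes whose pattern over the 12 libraries was most like the mean of the 10 standardized log2 CPM values, among 9982 others, were Slpi, a secreted protease inhibitor (r = 0.97), Irf8, a transcription factor of dendritic cells and macrophages (r = 0.92), and Wdr53, LOC103690111, Ackr4, Sumf2, Baalc, Slc26a6 and Pltp (r between 0.82 and 0.88). With group means subtracted the list was Plekhj1, Ypel3, Stard5, Cst3, Junb, Eva1b, Slpi, Hist1h2bq, Oasl2 and Ddit3 (r between 0.91 and 0.95), and Slpi was in both. The libraries share rats in pairs and these values are descriptions.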

How the data were processed

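RNA-seq of 12 ventricle libraries was analysed from the deposited table. Per the labels and methods, polyadenylated RNA was made into stranded libraries and sequenced as single reads, and the authors quantified them with kallisto 0.43.1 on an Ensembl rat transcriptome (Rnor_6.0) and summed transcripts to genes with tximport; strand settings of kallisto are not given in the sources used here. The authors deposited TPM values, which have an equal sum per library. The estimated counts they deposited are proportional to TPM within a library and so weight genes as TPM does. Entries with a number for a name (27, holding 0.0408% to 0.0621% of a library) were left out.

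Estimated counts were rounded, filtered with filterByExpr (13756 genes), scaled by TMM and fitted by group (4 group means) in edgeR 4.0.16, run under R 4.3.3 (8 residual degrees of freedom), quasi-likelihood tests and Benjamini-Hochberg adjustment over all tested genes at 0.05. The standard error is the log2 fold change over the square root of F. RV against LV over both exposures is the mean of the contrasts within hypoxia and normoxia. CPM values on the TMM scale were used for ratios within hearts and overlaps. Exposure and rat were read from the codes in the sample titles, since no other label gives the exposure of a sample. Libraries with the same number within an exposure come from the same rat. Their residuals correlated at r = 0.173, 0.0891 and 0.213 (hypoxic rats 1, 2 and 4) and 0.0375, 0.14 and 0.159 (normoxic rats 1, 2 and 3). With another rat of that exposure r was at most 0.0415, and with a rat of the other exposure at most 0.116. The last value is above those of hypoxic rat 2 and normoxic rat 1. Subtracting the mean of each group of 3 ties the values within an exposure to each other, so they do not test the pairing. The rat entered as a block in an alternative with 4 residual degrees of freedom. Between exposures a number names different rats.

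The members and lists were chosen with earlier results of these data known. All 10 members were named, and from each list up to 3 genes with the smallest adjusted p in RV_H against LV_H or over both exposures, plus the 10 genes most alike. Other genes named from a list were chosen because they were called. Some genes that this rule would name are not reported here. Alternatives were RLE size factors, library totals, no low-count filter (18703 genes), CPM of at least 1 in 3 libraries (12153 genes), DESeq2 1.42.0, edgeR's exact test, the 6 libraries of a comparison alone, limma 3.58.1 with a pseudocount of 1 or of 0.1 on TPM, for the 12154 genes reaching 1 TPM in 3 libraries, the block, leaving out each library, and, chosen after seeing the data, RT1-Db1 and RT1-Db2 summed. The fits were also tested on simulated data. The outcome is not reported here, and no support for the results is drawn from it. Promoter windows are from RefSeq (GRCr8), which is not the build of the transcriptome. Tables were handled under Python 3.11.15 using scipy 1.17.1, pandas 2.3.3 and numpy 2.4.6.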

Additional observations from a re-analysis of the deposited data

How the results depend on the processing

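For RV against LV over both exposures, 4 genes were called in the quasi-likelihood fit, 6 with the replicate block of the rat, with DESeq2 and with library totals, 7 with limma on log2(TPM + 1) and 7 on log2(TPM + 0.1), 3 with no filter or the CPM filter on low counts, and 0 to 6 with 1 library left out. For RV_H against LV_H the count was 0, and 3 with edgeR's exact test and 3 with DESeq2, 0 with the block, and 0 to 3 with 1 library left out. For RV_N against LV_N it was 0, and 1 with edgeR's exact test and 2 with DESeq2. For RV_H against RV_N it was 2, 1 with the 6 libraries alone, and 1 to 2 with 1 library left out. The counts for LV_H against LV_N (1) and for the difference of the effects (0) were equal in every fit. No called fold change turned its direction among 640 values compared, and 32 values of genes that were not called changed sign. The block changed no other call of the members than those named. Over all genes, calls in RV against LV were 107 higher and 95 lower, 231 and 250 with the block and 296 and 323 with DESeq2; the cause was not tested. With limma Ciita was below the filter of TPM. RT1-DOa, RT1-DOb and Ciita had at most 52.4 estimated counts a library, which follow TPM and are not numbers of reads. Their low level limits these 3 genes, and 3 rats a group limit what hypoxia effects of the chains could be seen.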

Other observations

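The chemokine-like cytokine Mif, a ligand of surface Cd74, was the 1 gene called between exposures among the 4 tested Cd74 ligands and partners. Of all tested genes, 7.43% were called higher in RV and 0.698% in LV. Of the 4 log2 fold changes, 3 were above 0 in either ventricle, with medians of 0.57 in RV and 0.34 in LV. Mif rose by 0.89 ± 0.11 on the log2 scale in RV_H against RV_N (edgeR's quasi-likelihood test, adjusted p = 0.00342). In LV_H against LV_N it rose by 0.58 ± 0.11 (adjusted p = 0.039), while Cd74 itself did not pass in either. In RV against LV over both exposures Mif had -0.09 ± 0.08 (adjusted p = 0.604), and the hyaluronan receptor Cd44, a partner of Cd74 at the cell surface, had 0.58 ± 0.19 (adjusted p = 0.157).

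Among 27 class I presentation genes, the endoplasmic reticulum chaperones Calr (0.48 ± 0.10, edgeR adjusted p = 0.0139) and Pdia3 (0.52 ± 0.12, adjusted p = 0.0211) rose in RV_H against RV_N, and the proteasome activator Psme1 fell (-0.59 ± 0.15, adjusted p = 0.023). With 2 of 27 higher and 1 lower, these shares were no larger than those of all tested genes, 7.43% higher and 7.6% lower. None of the 27 was called in LV_H against LV_N. The further class II entry RT1-Ha stayed at or below 0.143 TPM in every library. Calr, Pdia3 and Psme1 were named after their values were seen.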
